A study of Rattus norvegicus with 9 samples.

Results

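The genes described here are 8 transcription factors that fat cells use to switch on their own programme: the nuclear receptors Pparg, Ppara, Ppard, Rxra and Nr1h3 and the CCAAT/enhancer binding proteins Cebpa, Cebpb and Cebpd. They were taken by symbol from a table of 18964 rat genes, with earlier results of these data known. All 8 were among the 14643 genes that passed the filter on low counts, with 243 to 12545 estimated counts per library.

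The libraries were made from gastric lymphatic vessel of male Sprague-Dawley rats of 180 to 220 g, labelled wild type. Every rat was fasted for 12 h. Control rats had no further intervention before gavage. Model rats were kept in 15 cm of water at 22 °C for 4 h, a water-immersion stress that produces gastric ulcers, and BXD rats had the same stress and then received Banxia Xiexin decoction, a herbal mixture. Gavage at 10 ml per kg followed 30 min after the stress. The protocol gives distilled water to control and model rats, whereas the treatment label of the model libraries names saline. Each group had 6 rats and 3 libraries, and the labels used here tie no library to a rat, so p-values measure the spread between libraries.

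PPARγ, encoded by Pparg, is the receptor without which fat cells do not form, and it binds DNA as a pair with a retinoid X receptor such as the product of Rxra. PPARα and PPARδ pair with the same partner and drive fatty acid oxidation, and LXRα, encoded by Nr1h3, is a sensor of oxidised cholesterol that pairs with it too. In the textbook order of fat cell formation, C/EBPβ and C/EBPδ come early and induce PPARγ and C/EBPα, which then hold each other on. C/EBPβ and C/EBPδ are also early responders to cytokines, glucocorticoid and cyclic AMP.

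The start regions of the genes that the results turn on are printed here because RefSeq gives Pparg separate starts and because Cebpa and Cebpb, the most abundant members, have starts of a different make-up. The table of promoters from RefSeq (rat build GRCr8, whereas the counts use Rnor_6.0) held 7 windows for 6 of the 8 genes (all but Ppard and Cebpd), each running from 250 bases before the start to 50 after it. Capitals mark matches to the C/EBP motif TTGCNNAA, the CCAAT box CCAAT, the short cyclic AMP response element TGACG and the TATA box TATAAA, on either strand. The nuclear receptor hexamer AGGTCA was searched in the same way and had no match in the 7 windows.
Pparg, upstream start, chr4:150096808-150097107, plus strand: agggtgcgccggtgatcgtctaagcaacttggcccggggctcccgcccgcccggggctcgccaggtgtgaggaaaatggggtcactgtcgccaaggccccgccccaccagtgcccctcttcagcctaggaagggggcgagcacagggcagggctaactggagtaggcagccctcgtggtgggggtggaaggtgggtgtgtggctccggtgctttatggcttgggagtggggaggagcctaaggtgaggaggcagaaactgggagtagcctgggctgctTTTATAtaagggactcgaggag
Pparg, downstream start, chr4:150154522-150154821, plus strand: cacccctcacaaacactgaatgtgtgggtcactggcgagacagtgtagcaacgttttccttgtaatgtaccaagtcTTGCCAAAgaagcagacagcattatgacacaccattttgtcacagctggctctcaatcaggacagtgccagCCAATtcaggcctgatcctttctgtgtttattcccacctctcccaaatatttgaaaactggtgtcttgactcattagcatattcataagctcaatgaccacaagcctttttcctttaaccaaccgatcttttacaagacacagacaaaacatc
Cebpa, chr1:96896334-96896633, plus strand: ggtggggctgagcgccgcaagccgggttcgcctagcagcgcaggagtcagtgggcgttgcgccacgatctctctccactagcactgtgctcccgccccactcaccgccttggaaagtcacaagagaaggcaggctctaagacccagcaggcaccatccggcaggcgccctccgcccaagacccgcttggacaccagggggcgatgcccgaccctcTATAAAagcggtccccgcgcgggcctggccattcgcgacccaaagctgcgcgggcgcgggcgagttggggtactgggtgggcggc
Cebpb, chr3:176816755-176817054, plus strand: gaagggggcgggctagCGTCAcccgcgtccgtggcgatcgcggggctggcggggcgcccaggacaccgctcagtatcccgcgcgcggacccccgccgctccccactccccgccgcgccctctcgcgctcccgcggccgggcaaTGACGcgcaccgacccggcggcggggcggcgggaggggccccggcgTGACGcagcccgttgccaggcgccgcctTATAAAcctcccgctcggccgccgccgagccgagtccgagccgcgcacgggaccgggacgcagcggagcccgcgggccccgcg

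The Pparg starts differed in composition, with 64.7% G and C bases at the upstream window and 43.7% at the downstream one. The downstream window held a C/EBP match, TTGCCAAA, 174 bases before the start and a CCAAT box 103 bases before it. Of all 33465 RefSeq windows of this length, 10.6% held the C/EBP motif and 37.5% a CCAAT box. The upstream window held a TATA match on the reverse strand, 29 bases into the transcribed side, and 3 GC boxes (GGGCGG, left in lower case), which 33.1% of windows hold. Cebpb had 3 short cyclic AMP elements, at 234, 107 and 61 bases before its start, in a window of 81.0% G and C. Such an element was present in 21.2% of windows. Cebpa and Cebpb each had TATAAA on the plus strand, 35 and 33 bases before the start, a motif found in 14.2% of windows. The Rxra window held a C/EBP match on the reverse strand 73 bases before the start, and the Ppara and Nr1h3 windows held none of the capitalised motifs. The hexamer was present in 16.2% of all windows. None of the 7 windows held the direct repeat 1 of PPAR and RXR, the direct repeat 4 of LXR and RXR, the whole cyclic AMP element TGACGTCA or the glucocorticoid response element, which 0.0538%, 0.00598%, 1.83% and 0.0149% of all windows held. A match is a run of letters and not a measured site, and the deposited counts do not separate transcripts by start.

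Library totals ran from 12313813 to 13455705 estimated counts. Markers of fat cells were abundant in vessel libraries: the 20 adipocyte markers summed to 11220 to 13710 CPM (counts scaled to library size) in controls, 29680 to 50970 in the model and 21010 to 26390 after BXD, and in model against control 19 of them were called higher and 1, Adrb3, lower. The 12 markers of lymphatic endothelium were all detected and summed to 970 to 2112 CPM over the 9 libraries, and none of 8 gastric mucosa markers in the table passed the filter. Smooth muscle contractile markers summed to 6497 to 9625 CPM in controls, 3180 to 5553 in the model and 9675 to 14070 after BXD. Striated muscle markers stood at 35.5 to 50.7 CPM in 5 of the 6 control and model libraries and at 482 in model replicate 2, but at 8335 in BXD replicate 1 and 4475 in BXD replicate 3 against 77.4 in BXD replicate 2. BXD values that rest on replicates 1 and 3 are therefore given with and without them where the call or the size changes. Without both, a single BXD library is left, so only sizes of change are given for that fit. In whole tissue, fewer cells of a type and less RNA per cell cannot be told apart.

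In model against control, Ppard, Cebpa and Nr1h3 rose, and none of the 8 genes was called lower. These are 3 of 8 genes called (37.5%), where 42.2% of all tested genes were called in this comparison, 21.6% higher and 20.6% lower, at an adjusted p under 0.05 in edgeR's quasi-likelihood test. The share called among the 8 was thus near that among all genes. Over all genes the balance of directions moved with the scaling: 3161 were higher and 3016 lower here, 2367 and 3917 after scaling by upper quartiles, 1619 and 4910 when only library sizes were used and 1616 and 4859 on FPKM. The median of all genes shifted to -0.14, -0.28 and -0.25 under them. The median log2 fold change of the 8 genes was 0.71, beside -0.01 over all tested genes. Model and control libraries did not overlap for 4 of them, all higher in the model, and 58.3% of tested genes did not overlap, 28.9% being higher and 29.4% lower. Pparg, the receptor at the head of the programme, was not among them.

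**Figure D1:**
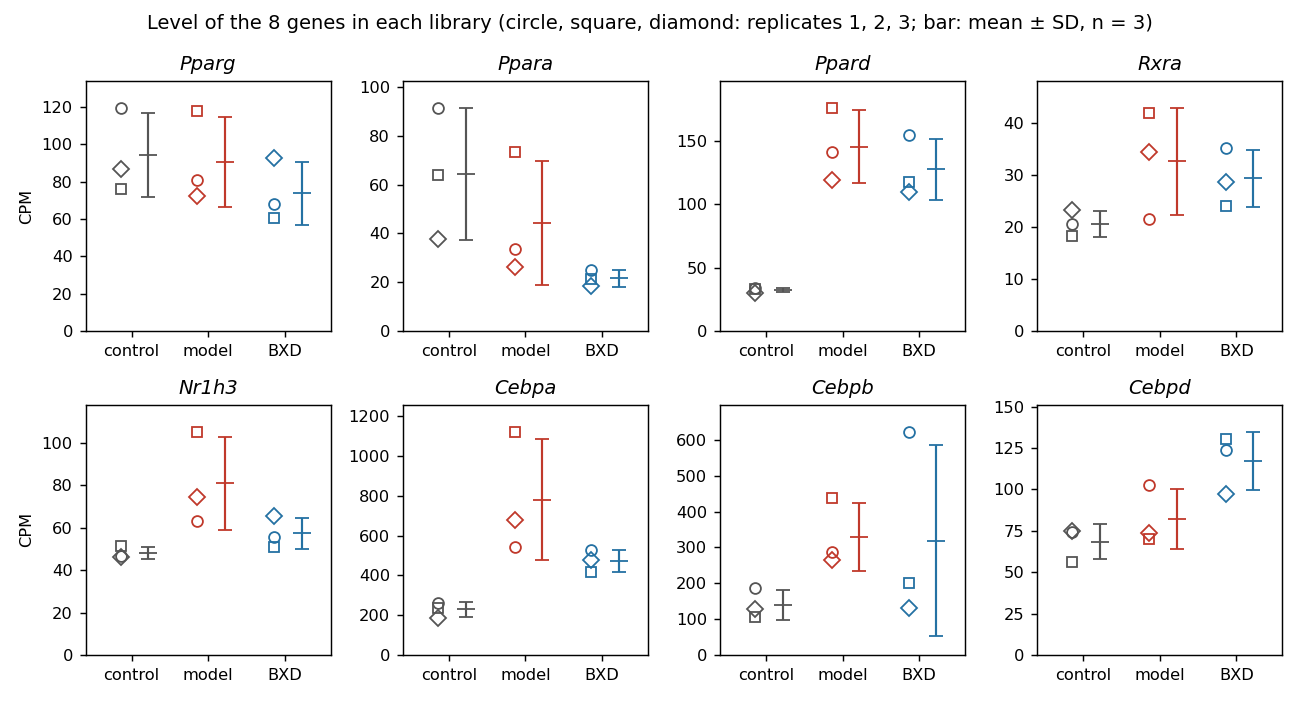
CPM (linear axis from 0) of the 8 genes in each library, with circle, square and diamond for replicates 1, 2 and 3 and a bar for the mean and SD of 3 libraries. The 3 Ppard control libraries lie between 30.5 and 33.9 CPM and the other 6 between 110.1 and 176, whereas the Pparg groups overlap.

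Among the PPAR genes, Pparg (gene 25664, chromosome 4, 147274055 to 147399383 in Rnor_6.0) had 119, 76.2 and 86.6 CPM in control replicates 1 to 3 and 81.0, 118 and 72.2 CPM in the model. After BXD it had 68.1, 60.3 and 92.6 CPM. The ranges overlapped in all 3 pairs of groups. Its log2 fold change in model against control was -0.06 (95% interval -0.60 to 0.48, adjusted p = 0.859), so a change of 1 log2 unit either way lay outside the interval. The sign of that value changed when single libraries were left out.

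Ppara (gene 25747, chromosome 7, 126618872 to 126687282), the oxidative receptor of liver and brown fat, spread widely among controls, at 91.4, 63.9 and 37.6 CPM. The model libraries had 33.6, 73.4 and 26.4 CPM and the BXD libraries 25.1, 21.3 and 18.3 CPM. Model replicate 2 stood apart from the other model libraries, and it also had the highest adipocyte sum (50970 CPM) and the highest brown adipocyte sum (7260 CPM, against 2651 and 3316). The log2 fold change in model against control was -0.54 ± 0.40 (SE, adjusted p = 0.308). Without model replicate 2 it was -1.10 and passed the test (adjusted p = 0.0414).

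Ppard (gene 25682, chromosome 20, 7818289 to 7883482), the PPAR found in most tissues, had 33.9, 33.2 and 30.5 CPM in controls. Model libraries had 141, 176 and 119 CPM, and BXD libraries 155, 118 and 110.1 CPM. Every stressed library thus exceeded every control library by more than 3-fold. Ppard rose by 2.16 ± 0.18 log2 units (SE, n = 3 per group) in model against control, a 4.47-fold difference (adjusted p = 0.000225), and it ranked 31 by p among the 14643 genes. All 20 alternatives kept the call, with values from 1.84 to 2.29. The authors' deposited table gives a log2 ratio of 2.18 with a q of 1.53e-29.

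Nr1h3 (gene 58852, chromosome 3, 80004130 to 80014197, minus strand) had 46.5, 51.4 and 46.1 CPM in controls and 63.1, 105 and 74.6 CPM in the model. The groups did not overlap, and the difference was 0.75 ± 0.18 log2 units (adjusted p = 0.0105), or 1.69-fold. All 20 alternatives called it, with values from 0.47 to 0.91. The closely related Nr1h2, which encodes LXRβ, had a log2 fold change of 0.10 (adjusted p = 0.547), and its sign depended on the scaling.

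Rxra (gene 25271, chromosome 3, 6272560 to 6298562), the shared partner, had 20.5, 18.2 and 23.3 CPM in controls and 21.6, 41.9 and 34.4 CPM in the model. Model replicate 1 lay within the control range and the other two above it. The log2 fold change was 0.66 ± 0.24 with an adjusted p of 0.0512, just beyond the threshold. It was called without model replicate 1 (adjusted p = 0.0100) and without BXD replicate 1 (0.0452). DESeq2's size factors in edgeR (0.0493) and DESeq2 itself (0.0280) also called it, and the authors' deposited table gives a q of 0.0371.

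Of the C/EBP genes, Cebpa (gene 24252, chromosome 1, 91363483 to 91366164) had 263, 237 and 188 CPM in controls and 542, 1124 and 677 CPM in the model. The highest control library was below the lowest model library. Cebpa rose by 1.77 ± 0.26 log2 units (adjusted p = 0.00133), or 3.40-fold, and the call held in all 20 alternatives, with values from 1.41 to 1.98. The lowest of these left out model replicate 2, the library with the highest adipocyte sum.

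Cebpb (gene 24253, chromosome 3, 164424502 to 164425933) had 186, 105 and 127 CPM in controls and 286, 439 and 265 CPM in the model, with no overlap. Its log2 fold change of 1.24 ± 0.52 did not pass the test (adjusted p = 0.0835), in a fit that shares its spread with the BXD libraries. Those had 623, 202 and 130 CPM, and BXD replicate 1 exceeded every other library. With only control and model libraries in the fit the adjusted p was 0.0111, and it was 0.00926 without BXD replicate 1 and 0.0415 without BXD replicate 3. The authors' deposited table gives a log2 ratio of 1.27 with a q of 5.06e-05.

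Cebpd (gene 25695, chromosome 11, 89008008 to 89009146) had 74.4, 56.1 and 74.7 CPM in controls and 103, 70.1 and 73.5 CPM in the model. The groups overlapped, and the log2 fold change was 0.26 ± 0.19 (adjusted p = 0.278). Its sign turned under library size alone and with FPKM.

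**Figure D2:**
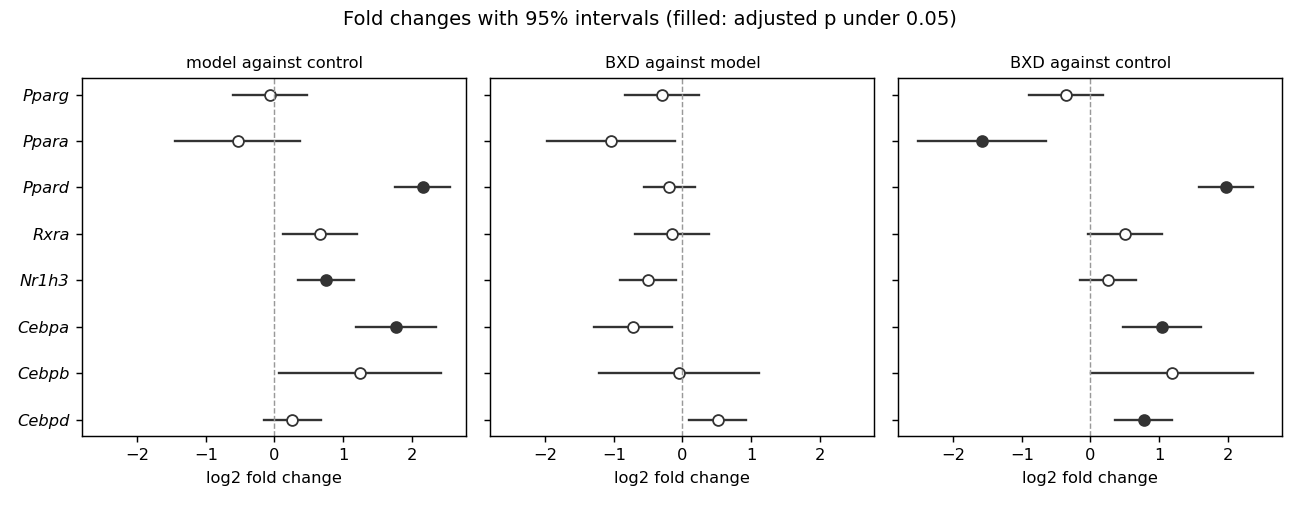
Log2 fold change and 95% interval of the 8 genes in each of the 3 comparisons, from edgeR's quasi-likelihood fit on 3 libraries per group. Ppard stands at 2.16 in model against control and 1.97 in BXD against control, and every gene misses the threshold in BXD against model.

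In BXD against model, none of the 8 genes passed edgeR's test, in a comparison where 0.0615% of all tested genes did, 0.0546% higher and 0.00683% lower. At an unadjusted p under 0.05 there were 4 of the 8, namely Ppara, Nr1h3, Cebpa and Cebpd, beside 20.9% of all tested genes (11% higher and 9.85% lower), while DESeq2 and limma-voom called 0 of the 8 and the authors' deposited table has no q under 0.05 among them. Cebpa was lower in every BXD library (417 to 528 CPM) than in every model library (542 to 1124 CPM), with a log2 fold change of -0.72 (95% interval -1.29 to -0.15, adjusted p = 0.164). Ppara did not overlap either, at 18.3 to 25.1 CPM against 26.4 to 73.4 CPM and a log2 fold change of -1.04 (-1.97 to -0.11, adjusted p = 0.200). These 2 non-overlapping genes, both lower, compare with 22.4% of all tested genes, 10.5% higher and 11.8% lower. Nr1h3 had -0.50 (adjusted p = 0.174) and Cebpd 0.51 (0.10 to 0.93, adjusted p = 0.170).

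The intervals for Ppard and Cebpb differed greatly in width. Ppard had -0.19 (-0.57 to 0.19), so the whole interval lay far from -2.16, the value that a return to the control level would have. Cebpb had -0.05 with an interval from -1.22 to 1.11, and its sign changed when single libraries were left out. Pparg had -0.29 (adjusted p = 0.517) and Rxra -0.15 (adjusted p = 0.746).

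In BXD against control, Ppard, Cebpa and Cebpd rose and Ppara fell, 4 of 8 genes called (50%) where 30.3% of all tested genes were called, 16.1% higher and 14.3% lower. Libraries did not overlap for 5 of the 8 genes, 4 higher and 1 lower, and for 48.6% of all tested genes, 23.8% higher and 24.8% lower. Over all genes 2355 were higher and 2089 lower, a balance of 1370 and 3602 with library size alone. Ppard was 3.92-fold higher (1.97 ± 0.18 log2 units, adjusted p = 0.000515) and held in all 20 alternatives. Cebpa was 2.06-fold higher (1.05 ± 0.25, adjusted p = 0.0148). Control and BXD libraries of Cebpd did not overlap, at 56.1 to 74.7 CPM and 97.2 to 131 CPM, and the difference was 1.71-fold (0.78 ± 0.19 log2 units, adjusted p = 0.0138). Ppara was 2.98-fold lower (-1.58 ± 0.41 log2 units, adjusted p = 0.0201). Both comparisons with control use the same control libraries.

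The Ppard call did not rest on single libraries, whereas others did. Leaving out BXD replicates 1 and 3, the libraries with striated muscle markers, kept a single BXD library. The log2 fold change was then 0.87 for Cebpa and -1.59 for Ppara, close to the values with all libraries. The Cebpa call was lost without control replicate 3 (adjusted p = 0.0576), and that of Cebpd without control replicate 2 (0.0513). The Ppara call was lost without control replicate 1 (0.0705) or 2 (0.0518) and without BXD replicate 2 (0.0601) or 3 (0.0651). Cebpb was not called (1.19, adjusted p = 0.114), and its log2 fold change was 0.25 without BXD replicate 1, while it was called without BXD replicate 3 (adjusted p = 0.0386). Rxra (0.51, adjusted p = 0.138), Nr1h3 (0.26, 0.309) and Pparg (-0.35, 0.293) did not pass, although the authors' deposited table lists Rxra at a q of 0.0436.

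Between genes, levels were compared per transcript length, as FPKM, the deposited unit that scales fragments by transcript length and depth. Cebpb (135 ± 37.0, SD, n = 3), Cebpa (107 ± 17.1) and Cebpd (89.2 ± 12.4) had the highest control means, and each overlapped its neighbour in this order. Pparg followed with 67.3 ± 14.3 FPKM, then Nr1h3 with 37.1 ± 2.68, Rxra with 21.1 ± 2.38, Ppard with 12.0 ± 0.665 and Ppara with 10.4 ± 4.26. Ppard and Ppara overlapped in controls. In the model the order began with Cebpa (300.4 ± 103), Cebpb (265 ± 61.3) and Cebpd (89.7 ± 20.03). Ppard had come to 44.5 ± 6.19 FPKM, overlapping Pparg (53.5 ± 11.1) and Nr1h3 (52.7 ± 11.4). Ppara stayed lowest of the 8 in the means of all 3 groups, at 6.05 ± 3.12 FPKM in the model and 3.08 ± 0.455 after BXD.

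The make-up of the PPAR family differed between control and stressed vessels. Pparg held 71.0 to 78.1% of the summed FPKM of the 3 PPAR genes in control libraries, 50.1 to 52.2% in the model and 44.7 to 60.4% after BXD. Ppard held 11.02 to 15.8% in controls, 40.2 to 45.2% in the model and 36.9 to 51.5% after BXD. Neither share overlapped between control and the other groups. The sum itself overlapped among all 3 groups, at 79.4 to 110.2 FPKM in controls, 88.5 to 127 in the model and 79.8 to 97.8 after BXD. The ratio of Ppard to Pparg averaged 0.183 ± 0.0386 in controls, 0.839 ± 0.0659 in the model and 0.924 ± 0.280 after BXD (SD, n = 3). These shares are descriptions of the same values that gave the calls above and were not tested.

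Within the retinoid X receptors, Rxra held 27.8 to 33.1% of the family FPKM in controls, 34.0 to 41.5% in the model and 37.0 to 43.2% after BXD. Rxrb held 35.5 to 35.9% in controls and 12.2 to 19.7% in the model. Rxrb fell by 0.84 log2 units in model against control (adjusted p = 0.00151), from 51.8, 49.1 and 52.6 CPM to 25.9, 32.1 and 27.95 CPM. Rxrg, the isotype of muscle and brain, rose by 0.95 log2 units (adjusted p = 0.0262) in the same comparison. That call was lost without any 1 of the control replicates 1, 2 and 3 (adjusted p = 0.0685, 0.0677 and 0.0838), without model replicate 2 (0.0511) and with library size alone or FPKM.

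Within the C/EBP genes, the summed FPKM was 294 to 391 in controls and 553 to 820 in the model. Cebpb kept a similar mean share in every group (40.3%, 40.4% and 40.4%), but after BXD that mean covered 59.7% in replicate 1 and 26.6% in replicate 3. The ratio of Cebpa to Pparg averaged 1.62 ± 0.346 in controls and 5.55 ± 1.04 in the model, with no overlap. Other family members went opposite ways in model against control, as Cebpg rose by 0.65 log2 units (adjusted p = 0.00717) and Ddit3, which encodes the inhibitory partner CHOP, fell by 0.89 (adjusted p = 0.00339). In BXD against control, Rxrb and Ddit3 were the only 2 called of 5 other family members tested, and they fell by 0.73 and 0.72 log2 units (adjusted p = 0.00357 and 0.0113).

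**Figure D3:**
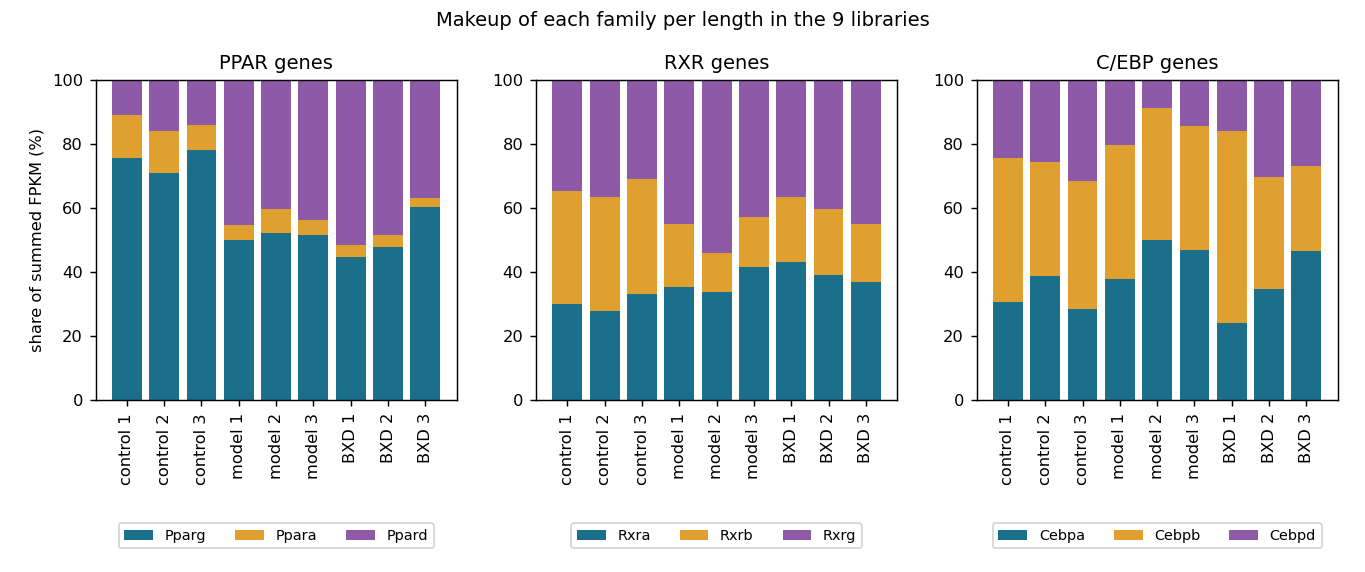
Share of the summed FPKM of each family held by each gene, in percent, one bar per library and one panel each for the PPAR, RXR and C/EBP genes. The Ppard share is 11.02 to 15.8% in the 3 control bars and 36.9 to 51.5% in the other 6.

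Since the vessel libraries carried so much fat cell RNA, the level of each gene was also set against the adipocyte marker sum. Per 1000 CPM of adipocyte markers, Cebpa had 16.8 to 19.5 CPM in controls, 18.2 to 22.2 in the model and 18.0 to 25.1 after BXD, so the groups overlapped. Pparg had 6.28 to 8.71 in controls, 2.31 to 2.73 in the model and 2.83 to 3.51 after BXD. Nr1h3 had 3.39 to 4.23, 2.07 to 2.45 and 2.395 to 2.65, and Ppara 3.35 to 6.67, 0.864 to 1.44 and 0.695 to 1.19. Ppard was higher per adipocyte sum in every stressed library, with 2.47 to 2.73 in controls, 3.46 to 4.75 in the model and 4.17 to 7.36 after BXD. Cebpd had 4.62 to 6.66 in controls, 1.38 to 3.46 in the model and 3.68 to 6.11 after BXD. Rxra was lower in every model library (0.726 to 1.13) than in any control (1.496 to 2.07), with 1.09 to 1.68 after BXD. Cebpb had 8.67 to 13.5 in controls, 8.62 to 9.65 in the model and 4.92 to 29.7 after BXD. Of the 20 adipocyte markers, 14 are also on the list of PPARγ targets, so this denominator is not free of the receptor's own programme. The adipocyte sum was higher in every model and BXD library than in every control library. A gene that rose less than this sum therefore has a lower ratio, whichever cells express it. The part of fat cell content in these differences was not tested.

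**Figure D4:**
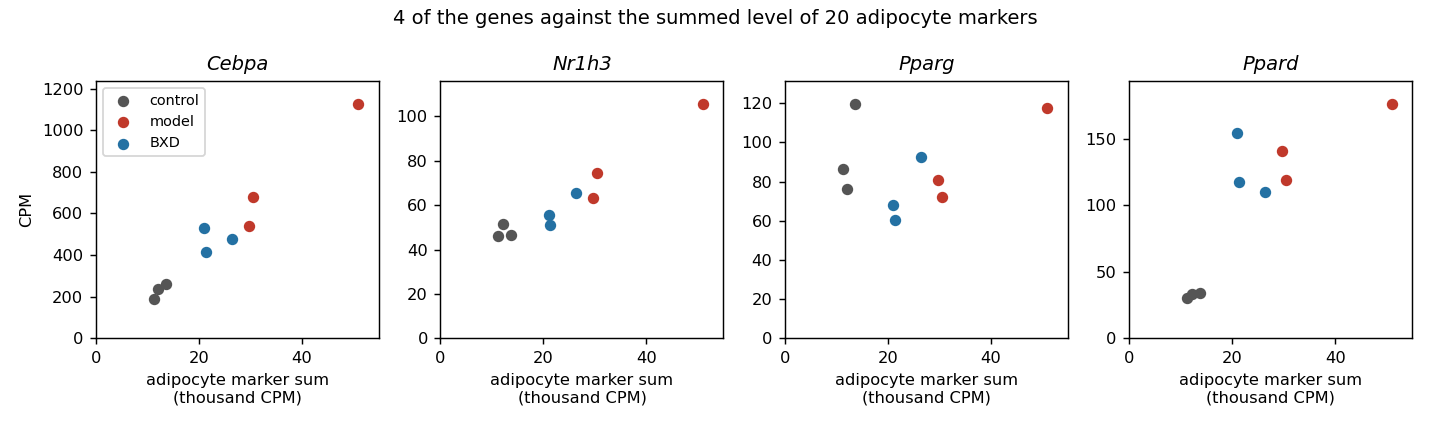
CPM of Cebpa, Nr1h3, Pparg and Ppard (vertical axes) against the summed CPM of 20 adipocyte markers (horizontal axes, divided by 1000), 1 point per library, coloured by group. The control libraries lie at sums of 11220 to 13710 CPM and the model libraries at 29680 to 50970 CPM, and Pparg does not separate the groups on the vertical axis.

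Coregulators mostly moved upward with stress. Of 18 coactivators and corepressors, 10 were called higher and 1, Crebbp, lower in model against control (median log2 fold change 0.43), and 9 higher and 0 lower in BXD against control. Ppargc1a, the coactivator of PPARs and of mitochondrial formation, had 27.0, 15.9 and 12.1 CPM in controls and 146, 294 and 136 CPM in the model. It rose by 3.39 log2 units (adjusted p = 0.000523), the largest change of the named coregulators. Tle3, a corepressor that works with PPARγ in white fat, rose by 1.46 (adjusted p = 0.000474) in the model and by 1.33 in BXD against control (adjusted p = 0.000991). Sirt1, a deacetylase that represses PPARγ, rose by 0.72 (adjusted p = 0.000766) in the model, and Ncoa4 by 0.73 (adjusted p = 0.00151).

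Among 9 other nuclear receptors that pair with RXR, 1 was called higher and 1 lower in model against control. Rarg, a retinoic acid receptor, fell from 78.3, 68.8 and 69.7 CPM to 36.9, 27.2 and 33.0 CPM, by 1.16 log2 units (adjusted p = 0.000481). Nr4a2, an immediate early receptor, rose by 2.11 (adjusted p = 0.0300), a call lost without control replicate 2 (0.0911) or 3 (0.0964) or model replicate 2 (0.120). After BXD, Rarg alone of the 9 was called against control, where it fell by 0.68 (adjusted p = 0.00482). With BXD replicates 1 and 3 left out, which kept a single BXD library, the Rarg value was -0.57.

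Transcription factors that promote fat cell formation went both ways. In model against control 3 of 15 were called higher (Klf4, Klf9 and Ebf1) and 6 lower. In BXD against control 4 were higher (Klf4, Klf5, Klf9 and Klf15) and 4 lower (Creb1, Zfp467, Stat5a and Zeb1). Klf9, a glucocorticoid-responsive activator of Pparg, rose by 1.60 (adjusted p = 0.000639), with 38.0 to 57.1 CPM in controls and 144 to 149 CPM in the model. Creb1, which acts on the Cebpb promoter, fell by 1.07 (adjusted p = 0.00118), and Zeb1 and Zfp467 fell by 0.68 and 0.85 (adjusted p = 0.00317 and 0.00324). The count of 6 lower genes became 3 without control replicate 1 or 3 or model replicate 1 or 2, and the counts of 4 and 4 after BXD each became 2 without control replicate 1 or 2. Of 12 anti-adipogenic factors, 2 were called in each direction in the model. Foxo1, the insulin-restrained repressor of Pparg, rose by 1.32 (adjusted p = 0.00107) and Dlk1, a marker of preadipocytes, by 1.39 (adjusted p = 0.0206) from 0.911 to 1.69 CPM in controls. The Dlk1 call was lost without control replicate 3 (0.0744) or model replicate 2 (0.0687). Twist1 fell by 0.73 (adjusted p = 0.00245) and Nr2f2, also a lymphatic and venous factor, by 0.76 (adjusted p = 0.0138). After BXD, Dlk1 and Foxo1 were again higher than in controls (2.23 and 0.93 log2 units, adjusted p = 0.00397 and 0.00591). The Dlk1 value was 1.41 with BXD replicates 1 and 3 left out, which kept a single BXD library. Gata3, Zfp521 and Twist1 were called lower in BXD against control. None of these 3 lower calls held without control replicate 2 or 3 or BXD replicate 2.

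The genes that PPARγ is known to drive in fat cells were higher in the model although Pparg itself was not called. Of 23 such targets, 22 were called higher and 0 lower in model against control, with a median log2 fold change of 1.48. Plin4, a lipid droplet coat, had 273, 255 and 275 CPM in controls and 1300, 1935 and 1305 CPM in the model, a 5.65-fold rise (2.50 log2 units, adjusted p = 0.00019). Adipoq, the fat cell hormone adiponectin, rose 3.51-fold (adjusted p = 0.000579), Lpl, the lipase that takes up circulating triglyceride, 5.10-fold (adjusted p = 0.000622) and Plin2 3.60-fold (adjusted p = 0.000688). Of these 23 targets, 14 are themselves adipocyte markers, and the adipocyte sums above differed between control and model without overlap. In BXD against control, 14 were called higher and 0 lower (median 0.91), with Plin4 4.00-fold higher (adjusted p = 0.000528). That count was 8 without control replicate 3. Leaving out BXD replicates 1 and 3 kept a single BXD library, so no count is given for that fit.

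Targets of PPARα and PPARδ in fat oxidation were called higher for 13 of 21 and lower for 0 in model against control (median 1.09), and for 4 and 0 in BXD against control (median 0.13, whose sign turned with library size scaling and with FPKM). Brown adipocyte markers, 1 of which is also on this list, moved with it: 5 of 6 tested were called higher in the model (median 1.60), and the 7 in the table summed to 543 to 1312 CPM in controls, 2651 to 7260 in the model and 944 to 1566 after BXD. Their part in the result was not tested. Pdk4, the kinase that spares glucose, rose by 1.67 (adjusted p = 0.00505) and Angptl4, an inhibitor of Lpl, by 1.09 (adjusted p = 0.00679) in the model. Plin2, Angptl4 and Pdk4 were among the 4 called in BXD against control. Plin2 and Angptl4 are also on the list of PPARγ targets above. The count of 13 became 6 without control replicate 2 and 5 without control replicate 3. The 4 calls after BXD became 2 without control replicate 3. No count is given for the fit without BXD replicates 1 and 3, which kept a single BXD library. Of 12 LXR targets, 6 were called higher and 0 lower in the model (median 0.63), and 2 and 0 in BXD against control (median 0.19, which turned sign with the same scalings). Model and control libraries did not overlap for 6 that were higher and 1, Abca1, that was lower, beside 28.9% and 29.4% of all tested genes. Of the 12, 2 are also on another of the 10 lists. Abcg1, a cholesterol exporter, rose by 1.19 (adjusted p = 0.00533) in the model and by 1.62 (adjusted p = 0.00213) in BXD against control, with 63.2 to 92.2 CPM in controls and 207 to 285 CPM after BXD. Smpdl3a and Arl4c rose by 1.08 and 1.53 in the model (adjusted p = 0.00361 and 0.00572). In the same comparison 6 of 10 macrophage markers were called higher, their sums being 570 to 729 CPM in controls and 865 to 976 CPM in the model.

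**Figure D5:**
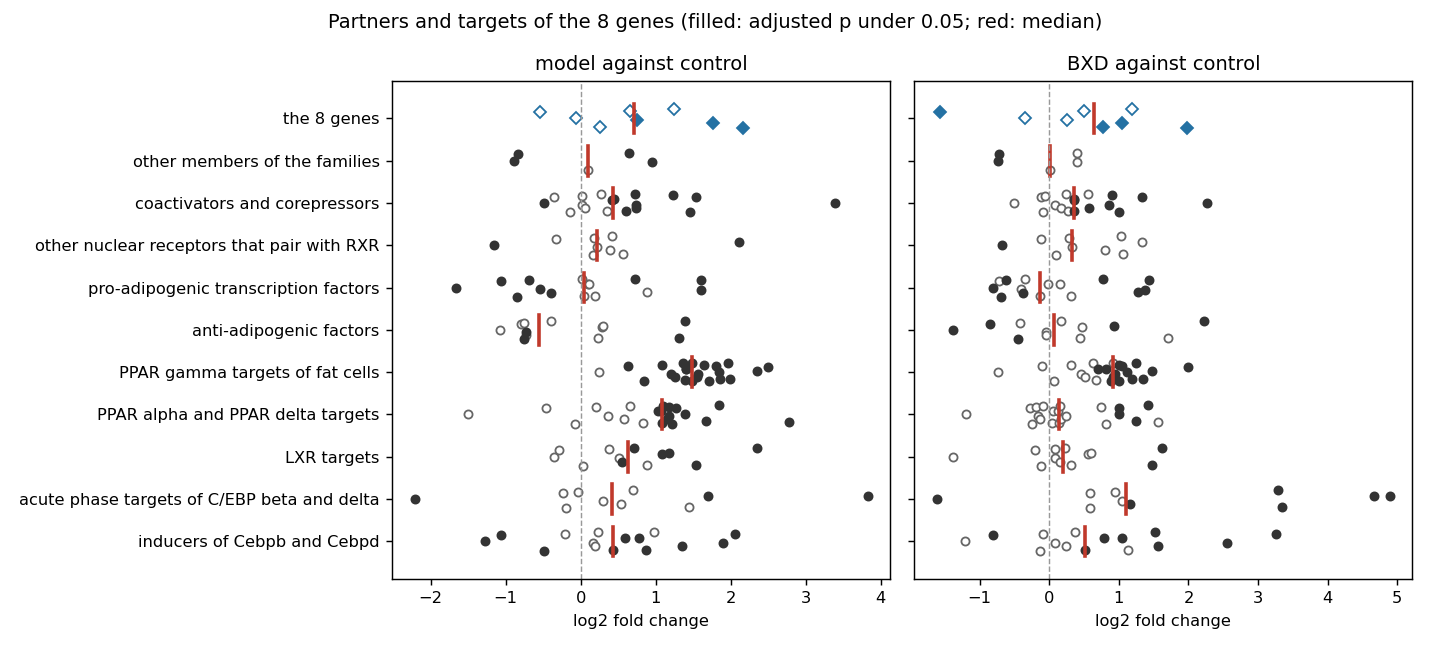
For each of 10 lists of related genes, and for the 8 genes themselves, the log2 fold change of every tested gene in model against control and in BXD against control, 1 point per gene, filled where the adjusted p is under 0.05, with a bar at the median. The PPARγ target list has its median at 1.48 in model against control, and the PPARα and PPARδ target list at 1.09.

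Acute phase targets of C/EBPβ and C/EBPδ were called higher for 2 of 10 and lower for 1 in model against control, and for 5 and 1 in BXD against control (medians 0.42 and 1.1). The genes called higher were Ptx3 and Csf3 in the model and Ptx3, Csf3, Hp, Il6 and Cxcl1 after BXD. Csf3 was near the floor, with 0 to 0.195 CPM in controls, 0.84 to 2.28 in the model and 1.66 to 5.26 after BXD. The 5 calls after BXD became 3 without control replicate 2 or 3. Il6 and Cxcl1 were high mainly in BXD replicate 1: Il6 had 26.4, 3.77 and 1.21 CPM in the BXD libraries against 0.710 to 1.43 in controls, and Cxcl1 had 174, 31.9 and 4.53 CPM against 1.61 to 3.76. Il6 had a log2 fold change of 3.34 (adjusted p = 0.0284) and without BXD replicate 1 one of 1.28 (adjusted p = 0.0929), which ended its call. Without BXD replicate 3 the Il6 value was 3.87 (adjusted p = 0.00754), and it was 1.88 without both, which kept a single BXD library. Without BXD replicate 1, Cxcl1 stayed called at 2.95 against 4.89 (adjusted p = 0.0211 and 0.0158). Ptgs2, the inducible cyclooxygenase, fell by 2.21 in the model (adjusted p = 0.00354), from 9.09 to 20.2 CPM in controls to 2.15 to 4.47 CPM. Ptx3, a secreted pentraxin, had 1.63, 2.79 and 2.52 CPM in controls, 11.04, 4.57 and 7.14 in the model and 39.3, 20.4 and 8.61 after BXD. It rose in both comparisons with control (adjusted p = 0.0338 and 0.00345), but the call in model against control was lost without any 1 of the control libraries (0.103, 0.0705 and 0.0823 without replicates 1, 2 and 3) and without model replicate 1 (0.105) or 3 (0.0629). It was also lost with limma-voom (0.128), with library size scaling (0.0556) and in limma on log2 FPKM (0.0781 and 0.0612). Of 15 genes of the cytokine and glucocorticoid routes that induce Cebpb and Cebpd, 7 were called higher and 3 lower (Creb1, Crebbp and Adrb3) in the model, and 7 higher and 1 lower (Creb1) in BXD against control. Fkbp5, a glucocorticoid target, rose by 1.89 (adjusted p = 0.0155), Lifr by 0.78 (adjusted p = 0.00503) and the interleukin 1 receptor Il1r1 by 0.88 (adjusted p = 0.0163) in the model. The 7 higher calls and the 3 lower ones each became 1 without control replicate 1 or 2, with Fkbp5 at an adjusted p of 0.0580 and 0.0539 and Il1r1 at 0.0544 and 0.0583. The Lifr call was lost in limma on log2 FPKM (0.43 and 0.48, adjusted p = 0.0837 and 0.0847 with pseudocounts of 0.5 and 0.1). That of Il1r1 was also lost in these 2 fits (adjusted p = 0.0803 and 0.0789) and in edgeR with library size scaling (0.0627). After BXD, Osmr, the oncostatin M receptor, rose by 1.51 against control (adjusted p = 0.000988) and Stat3 by 1.04 (adjusted p = 0.00175). Whether these changes are linked to the rise of Cebpd was not tested.

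None of the 10 lists had a gene called by edgeR's test in BXD against model. DESeq2 called 8 of the 23 PPARγ targets, 9 of the 21 PPARα and PPARδ targets and 3 of the 12 LXR targets lower, and 3 acute phase genes and 4 inducers higher. Of the 14132 genes to which DESeq2 gave an adjusted p in this comparison, it called 3.3% lower and 4.54% higher. At an unadjusted p under 0.05 in edgeR, 17 of the 23 PPARγ targets passed, beside the 20.9% of all tested genes given above. The PPARγ targets had a median log2 fold change of -0.61 there, and 12 of the 23 were lower in every BXD library than in every model library. Among all tested genes, 11.8% were lower and 10.5% higher without overlap in this comparison. The acute phase list had a median of 0.81, with 2 of 10 genes higher without overlap. All of these values come from genes chosen with earlier results of these data known, and are given as counts and medians beside -0.01 for all tested genes.

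Across the 9 libraries, Cebpa varied most like Ppard (Pearson r of log2 CPM 0.912) and Nr1h3 (0.911) among the other 7 genes, whereas Pparg had 0.0811 with Cebpa, 0.303 with Nr1h3 and -0.218 with Ppard. Pparg and Ppara had an r of 0.696. These coefficients describe libraries of 3 groups that share their group means. Among 12961 genes, those most like Ppard were Bcar3 (0.996), Arih2 (0.995) and Ogfrl1 (0.995). Bcar3, an adaptor of integrin signalling, had 39.6 to 44.7 CPM in controls, 228 to 299 in the model and 191 to 249 after BXD. Its order of groups was that of Ppard, which its choice by correlation favours. The genes most like Cebpa were Nfkbib (0.996), Ppp2r5a (0.991) and Pnpla2 (0.989), the last of which encodes the fat cell triglyceride lipase. Those most like Nr1h3 were Mlycd (0.993), Mrpl42 (0.984) and Hsd17b4 (0.982), and Mlycd, malonyl-CoA decarboxylase, had 45.9 to 54.3 CPM in controls and 63.9 to 111 in the model.

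The genes nearest to Cebpb were Ivns1abp (0.984), Plk3 (0.982) and Btg2 (0.982), and Btg2, an early response inhibitor of growth, had 1034 CPM in BXD replicate 1 against 261 and 189 in the other BXD libraries. BXD replicate 1 was the highest library for both Cebpb and Btg2, a likeness that the choice of Btg2 by correlation favours. Cebpd was most like Phc2 (0.976), Tbkbp1 (0.966) and Steap1 (0.966), and Ppara most like Rapgefl1 (0.962), Camsap3 (0.952) and Adra1d (0.945). Rxra and Pparg had lower best values, at 0.946 for Syngr2 and 0.924 for Lgr6.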

How the data were processed

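Poly(A)-enriched RNA of 9 gastric lymphatic vessel libraries was sequenced. Per the submitters' processing notes, HISAT2 2.2.4, Bowtie2 2.2.5 and the build Rnor_6.0 were used. Which tool counted the reads was not given in the sources used. Estimated counts were deposited by the authors for each gene (88.8% of values whole), with FPKM. Log2 ratios, p-values and q-values of the authors' own comparisons stand beside them, per the file headers. A further 54 columns of per-sample values were not used. Totals of 12313813 to 13455705 counts limit precision little for the 8 genes, and the spread between libraries (coefficient of variation 23.3%, 6 residual degrees of freedom) limits it more.

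Estimated counts were rounded and fitted with edgeR 4.0.16 (R 4.3.3): filterByExpr, TMM, robust quasi-likelihood test, group as the only term, all 9 libraries, Benjamini-Hochberg adjustment over 14643 genes and a threshold of 0.05. CPM values use TMM factors (0.873 to 1.15), and log2 CPM a prior count of 2. Alternatives were DESeq2 1.42.0, limma 3.58.1 (voom, and log2 of FPKM plus 0.5 or 0.1), other scalings, no filter, only the groups compared, a replicate block and leaving out each library, and, chosen after seeing the data, leaving out BXD replicates 1 and 3. The last of these keeps a single BXD library. On data simulated for model against control over 14499 genes, 55 of 100 genes changed 2-fold and 88 of 100 changed 4-fold were called, with 6 false calls. Only these genes changed in the simulation, whereas 42.2% of tested genes were called in the data. The adjustment is stricter with few changed genes, so these shares do not measure the power of that comparison.

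The 8 genes, the 10 lists of related genes and the 12 marker lists were chosen with earlier results of these data known. Genes named from a list are up to 4 with the smallest p among those called in model against control and up to 2 in the other comparisons, plus, for each of the 8 genes, up to 3 genes of at least 1 mean CPM with the highest correlation. Nr1h2 is named outside this rule, as the other LXR. Genes outside the rule that make up a count of 5 or fewer are named after their values were seen, Il6 and Cxcl1 with values, and 1 such gene is not reported here. In model against control the marker lists had these calls: blood endothelium (1 of 9 higher, 2 lower), lymphocyte (1 of 12 higher), hepatocyte (1 of 4 higher), mesothelium (2 of 3 higher), brown adipocyte (5 of 6 higher), lymphatic endothelium (1 of 11 higher, 3 lower), smooth muscle (0 of 13 higher, 9 lower), striated muscle (0 of 12) and nerve and glia (1 of 10 higher, 6 lower). Motifs were searched as exact letters on both strands, and promoters matched by symbol.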

Additional observations from a re-analysis of the deposited data

How the results depend on the processing

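Among the 8 genes, Ppard in both comparisons with control and Cebpa and Nr1h3 in model against control passed the test in all 20 alternatives. The number of the 8 called in model against control was 3 to 5 when single libraries were left out, with 5 without BXD replicate 1, and in BXD against control it was 2 to 4. In BXD against model none of the 8 was called in any alternative. The number of all genes called there, 9, was 16 without the low count filter, 1107 with DESeq2, 3 with limma-voom, 27 and 26 with limma on log2 of FPKM plus 0.5 and 0.1, 1 with only the compared groups, 1 with the replicate block, and 1 to 154 with single libraries left out. In BXD against control, 4444 genes became 2352 without BXD replicates 1 and 3 and 2728 to 4775 with single libraries left out, and in model against control 6177 became 4317 to 6890. Signs turned for values near 0. In model against control, Pparg (-0.29 to 0.14 with single libraries left out) was 0.14, 0.02 and 0.08 without control replicate 1, model replicate 1 and model replicate 3. Cebpd was -0.00203 with library size alone and -0.00614 and -0.00622 with FPKM plus 0.5 and 0.1, and Nr1h2 was -0.028 after scaling by upper quartiles, -0.17 when only library sizes were used and -0.16 on FPKM plus either value. In BXD against model, Rxra ranged from -0.38 to 0.065 and Cebpb from -0.99 to 0.32 with single libraries left out, positive without model replicate 2 for Rxra (0.065) and without model replicate 2 (0.21), BXD replicate 2 (0.19) or BXD replicate 3 (0.32) for Cebpb. The cause was not tested. Of 1020 alternative values for the other named genes, 980 kept their direction and call, 36 lost the call and 4 turned sign.

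Libraries with the same replicate number did not vary together (correlations of -0.43 to 0.09 over 9 pairs, 0 of 9 libraries closest to their own number). With the replicate block, 5365 genes and 3 of the 8 were called in model against control, 3663 and 4 in BXD against control, and 1 and 0 in BXD against model.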
